A study of Mus musculus with 7 samples.

Results

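CTCF and cohesin were followed through 8 genes, chosen by name from the 29267 genes measured: *Ctcf*, the cohesin ring genes *Smc1a*, *Smc3* and *Rad21*, the alternative STAG subunits *Stag1* and *Stag2*, the loader *Nipbl* and the release factor *Wapl*. Each symbol matched 1 gene identifier. RNA was sequenced in 7 libraries, 1 for each group, so no group has a replicate and the spread between cultures is unknown. The reprogrammed cells were OG2 mouse embryonic fibroblasts infected with retroviruses for *Oct4*, *Sox2*, *Klf4* and *c-Myc*. They carry a green fluorescent protein reporter under the *Oct4* promoter and distal enhancer (GOF18ΔPE). The paper takes its activity as a naive trait, at least in part. The mES-Oct4GFP+ and mES-Oct4GFP- cells were sorted by fluorescence after reprogramming in mES medium (serum and LIF, with vitamin C), and the 5C-Oct4GFP+ and 5C-Oct4GFP- cells after reprogramming in the defined 5C medium (N2, bFGF, LIF and vitamin C). The 5C-Oct4GFP+ (naive) cells were 5C-Oct4GFP+ cells kept for 20 passages with LIF, CHIR99021 and PD0325901. The 5C-Oct4GFP+ (primed) cells were 5C-Oct4GFP+ cells taken with bFGF and activin A, then CHIR99021 and IWR-1, over 20 passages, and R1 ESCs-primed were R1 embryonic stem cells handled in the same primed conditions. The Oct4GFP- groups are what the sort leaves behind, a mixture of cells that did not switch the reporter on, and the Oct4GFP+ groups all come from transduced fibroblasts. In the paper, 5C-Oct4GFP+ cells lost their green fluorescence when grown in primed medium, so the name 5C-Oct4GFP+ (primed) states origin.

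CTCF is a zinc-finger protein that binds DNA at oriented sites, and cohesin is a ring that encloses DNA. In interphase, cohesin loaded by NIPBL extrudes chromatin loops until it meets CTCF or is released by WAPL. In dividing cells the same ring holds sister chromatids together from replication to anaphase. SMC1A and SMC3 form the arms of the ring, RAD21 closes it, and either STAG1 or STAG2 binds RAD21, so cohesin exists in alternative forms. CTCF and cohesin are known in pluripotent cells for setting domain borders and for bringing enhancers of pluripotency genes to their promoters.

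Levels are given as TPM, the transcript abundance corrected for length and brought to a common total in each library, so that genes can be compared within a library. Differences between libraries are on the log2(TPM + 1) scale, which understates changes of low genes. A difference was called at 1.5-fold or more on that scale. The 95% intervals are exact and come from the read counts of the gene. They cover counting error only, neither the spread between cultures nor the assignment of reads to transcripts. All 8 genes were well expressed, with 538 to 4110 counts per library and 22.7 to 689.9 TPM. The lowest value was *Nipbl* in 5C-Oct4GFP+ (naive), which still lay above 67.0% of the detected genes there. Total counts ran from 6108252 in mES-Oct4GFP+ to 11496615 in 5C-Oct4GFP+ (primed).

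**Figure D1:**
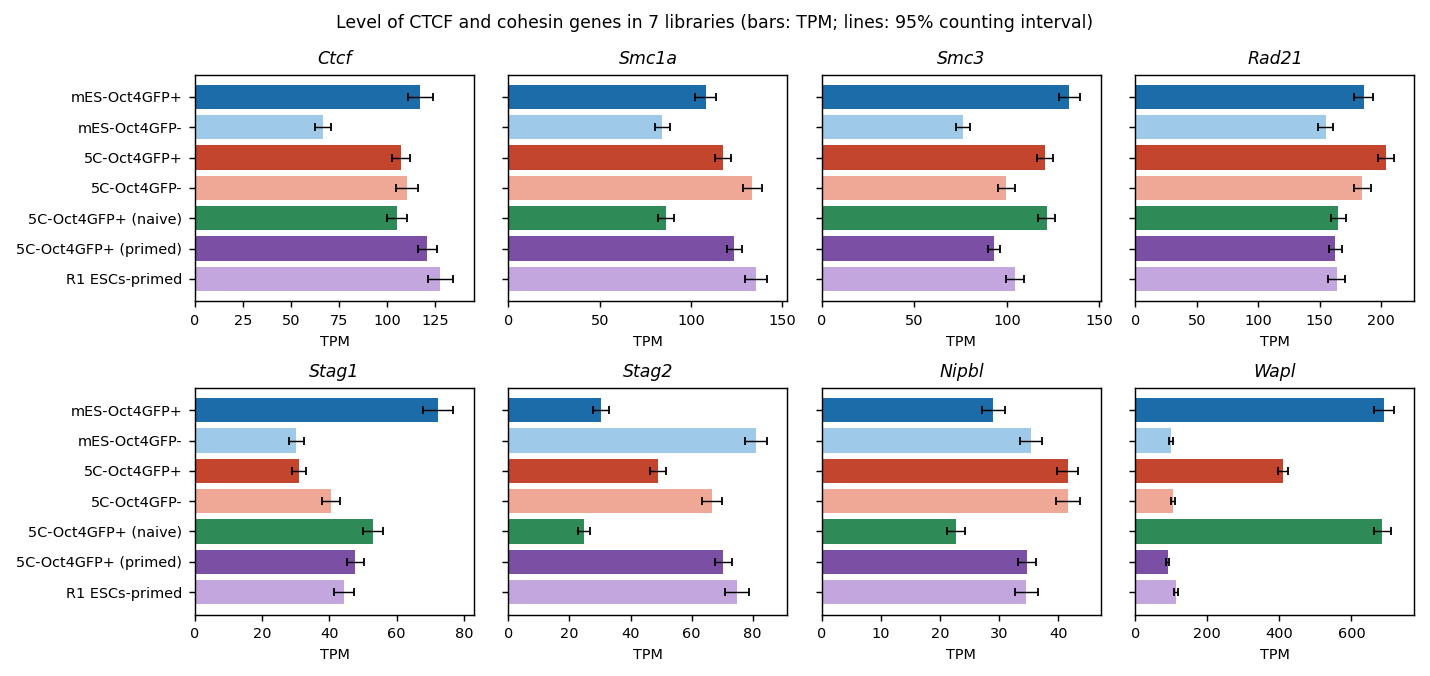
Level of each gene in TPM on the x axis (each panel has its own scale from 0) in the 7 libraries on the y axis. Black lines are 95% counting intervals. *Ctcf* was lowest in mES-Oct4GFP-, *Stag1* and *Stag2* were ordered differently between libraries, and *Wapl* was high in naive cells and both sorted Oct4GFP+ libraries.

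The labels were checked against markers. TPM was summed over 5 shared pluripotency genes (*Nanog*, *Utf1*, *Dppa4*, *Tdgf1*, *Sall4*). This sum was 110 and 313 in the Oct4GFP- libraries of mES and 5C medium and 1241 to 2376 in the other 5. Taken singly, only *Tdgf1* and *Sall4* kept this split. For *Nanog*, 5C-Oct4GFP- cells (119.5 TPM) stood level with 5C-Oct4GFP+ (primed) cells (118 TPM). Their *Utf1* level (99.9 TPM) exceeded that of mES-Oct4GFP+ cells (42.2 TPM). Their *Dppa4* level (3.09 TPM) exceeded that of 5C-Oct4GFP+ (primed) cells (0.54 TPM). Summed TPM of 6 fibroblast genes (*Col1a1*, *Col1a2*, *Thy1*, *Postn*, *Fbn1*, *Twist2*) was 377 in the Oct4GFP- cells of mES medium and 213 in those of 5C medium. The sum was 5.89 to 8.90 in both sorted Oct4GFP+ groups and naive cells, 51.0 in primed and 125 in R1 ESCs-primed cells. With 5C against mES medium, 4 of the 6 were called lower in Oct4GFP- cells, as were 19.1% of all genes tested. *Thy1* was called higher there (53.3 against 8.73 TPM), and *Fbn1* was not called (48.5 against 36.4 TPM). The primed libraries thus held transcripts of the fibroblast genes, with *Col1a1* at 13.3 and 40.5 TPM. The paper induced the primed state of R1 ESCs on fibroblast feeder cells and then maintained the cells on serum-coated plates. The source of these transcripts was not tested. Summed TPM of 5 naive genes (*Zfp42*, *Esrrb*, *Tfcp2l1*, *Klf2*, *Nr0b1*) was 1060 in naive, 6.38 in primed and 22.1 in R1 ESCs-primed cells. Of these, *Zfp42* and *Nr0b1* were listed at 0 in 5C-Oct4GFP+ (primed) cells, against 6.02 and 2.85 TPM in the R1 line. Summed TPM of 5 primed genes (*Fgf5*, *Otx2*, *Lef1*, *Zic2*, *Sfrp2*) was 75.3 in naive, 590 in primed and 494 in R1 ESCs-primed cells. Of these, 4 were called lower in naive than in primed cells, and *Lef1* was called higher, at 45.7 against 27.5 TPM. Of all genes tested there, 32.6% were called lower and 24.4% higher. Among Oct4GFP- cells the primed sum was 102 after mES and 109 after 5C medium. Summed TPM of 15 cell cycle genes was 1355 in mES-Oct4GFP- cells, 3025 in their 5C counterpart and 3861 to 4271 elsewhere. In bulk RNA fewer cells of a type and less RNA per cell cannot be told apart.

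*Ctcf* (GRCm38 chr8:105636568-105682922, plus strand) lay between 105 and 128 TPM in 6 libraries and was lower in 1. Among Oct4GFP+ cells it stood at 117 TPM after mES and 107 after 5C medium, and among Oct4GFP- cells at 66.6 and 111 TPM. Naive cells had 105, primed cells 121 and R1 ESCs-primed 128 TPM. Ordered by level, 5 of 6 neighbouring libraries did not differ beyond counting error, and only the step down to the lone low library, mES-Oct4GFP-, did (1.58-fold, 95% interval 1.45 to 1.71). Libraries further apart in this order could differ: the level in naive cells was 0.868 times that in primed cells (0.813 to 0.926). From counts scaled to the library total that ratio was 1.02 (0.958 to 1.09). In Oct4GFP- cells, *Ctcf* was 1.66-fold higher with 5C than with mES medium (interval 1.53 to 1.81). In Oct4GFP+ cells the ratio of 5C to mES medium was 0.913 (0.850 to 0.982), and after median-ratio rescaling 0.945 (0.879 to 1.02), which includes equal levels. The study had picked *Ctcf* among epigenetic factors that these same Oct4GFP- libraries showed to be higher with 5C medium, so the first direction is not independent evidence. Cell cycle genes moved with it: all 15 passed 1.5-fold in the same direction in Oct4GFP- cells, against 19.9% of all genes tested. Their part in the *Ctcf* difference was not tested. The lincRNA *Gm5914* and the gene *Agrp* overlap the 5′ end of *Ctcf* on the other strand, and the library kit does not mark strand. Their levels were at most 7.29 and 1.27 TPM.

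The study asked whether hypoxia-inducible factor 1 (HIF1) and mesenchymal factors act at the *Ctcf* promoter, so the promoter letters are shown. Windows of 250 bases before the RefSeq start site (GRCm38.p6) were at hand for 5 of the 8 genes, namely *Ctcf*, *Smc1a*, *Smc3*, *Stag1* and *Wapl*. They were searched on both strands for the HIF1 core ACGTG, its other form GCGTG, and the E-box CAGGTG bound by SNAI and ZEB factors. The first 2 differ in 1 base, and a CACGTG would count ACGTG on each strand. *Ctcf* held GCGTG 3 times, 249, 218 and 211 bases before the start, and neither of the others. GCGTG stood in 4 of the 5 windows, against 28.2% of all 32851 RefSeq windows of that length. ACGTG stood in 1 of the 5, *Stag1*, against 16.6% of all windows, and CAGGTG in none of the 5, against 17.2%. The 5 windows had 56.8% to 77.6% G and C, above the median of 52.4%, and the share of GCGTG was not adjusted for that. A match is a description of the letters, not a bound site. Capitals mark the matches in the windows of *Ctcf*, *Stag1* and *Wapl*, the genes whose levels the results turn on, at chr8:105636288-105636537, chr9:100643198-100643447 and chr14:34673678-34673927, all on the plus strand.
Ctcf: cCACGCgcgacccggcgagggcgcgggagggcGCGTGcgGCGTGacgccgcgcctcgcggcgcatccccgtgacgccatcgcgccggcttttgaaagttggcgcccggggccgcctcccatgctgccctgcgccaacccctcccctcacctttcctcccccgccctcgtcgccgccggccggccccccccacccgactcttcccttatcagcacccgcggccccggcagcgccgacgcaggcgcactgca
Stag1: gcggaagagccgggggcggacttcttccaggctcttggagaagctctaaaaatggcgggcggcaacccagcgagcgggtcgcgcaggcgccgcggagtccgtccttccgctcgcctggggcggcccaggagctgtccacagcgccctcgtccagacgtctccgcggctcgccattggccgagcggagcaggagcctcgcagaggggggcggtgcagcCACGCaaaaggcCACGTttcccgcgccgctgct
Wapl: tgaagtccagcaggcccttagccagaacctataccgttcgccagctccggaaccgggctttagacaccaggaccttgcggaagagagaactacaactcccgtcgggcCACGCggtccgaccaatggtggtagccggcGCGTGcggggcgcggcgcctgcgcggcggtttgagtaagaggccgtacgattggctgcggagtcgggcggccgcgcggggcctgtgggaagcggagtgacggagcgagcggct

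The ring genes varied less than most genes. Across the 7 libraries, the highest level was 1.32 times the lowest for *Rad21*, 1.61 times for *Smc1a* and 1.76 times for *Smc3*. On the log2 scale their ranges were 0.40, 0.68 and 0.80, against a median of 1.30 for the 11020 genes with at least 1 TPM in every library. Only 2.21% of those genes had a smaller range than *Rad21*, the kleisin that closes the ring (chr15:51962240-51991747, minus strand). *Rad21* stood at 186 TPM after mES and 204 after 5C medium in Oct4GFP+ cells, at 155 and 184 in Oct4GFP- cells, and at 165 in naive, 163 in primed and 164 in R1 ESCs-primed cells. From naive cells down to mES-Oct4GFP- cells, no step between neighbours in the order exceeded counting error. Such steps do not compare libraries further apart. *Rad21* passed 1.5-fold in none of the comparisons. *Nipbl* and *Ctcf*, outside the ring, also had log2 ranges below the median of 1.30, at 0.85 and 0.93. As counts scaled to the library total, the highest level was 1.44 times the lowest for *Rad21*, 1.60 for *Smc1a* and 1.97 for *Smc3*.

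*Smc1a* (chrX:152016428-152062694, plus strand) and *Smc3* (chr19:53600398-53645833, plus strand) encode partners that pair one to one in the ring, yet their transcripts took different orders. The level of *Smc1a* was 108 TPM after mES and 117 after 5C medium in Oct4GFP+ cells, 84.3 and 133 in Oct4GFP- cells, 86.2 in naive, 124 in primed and 135 in R1 ESCs-primed cells. That of *Smc3*, in the same order, was 134 and 120.5 TPM in Oct4GFP+ cells, 76.2 and 99.6 in Oct4GFP- cells, 122 in naive, 93.0 in primed and 104.5 in R1 ESCs-primed cells. Both were lowest in mES-Oct4GFP- cells, *Smc1a* together with naive cells, from which it did not differ beyond counting error. The *Smc1a* to *Smc3* ratio of TPM was below 1 in naive cells (0.709, interval 0.666 to 0.755) and mES-Oct4GFP+ cells (0.807, 0.753 to 0.864). It was near 1 in 5C-Oct4GFP+ cells (0.9747, 0.926 to 1.03) and 1.11 (1.03 to 1.19) in mES-Oct4GFP- cells. In 5C-Oct4GFP-, primed and R1 ESCs-primed cells it was 1.34, 1.33 and 1.30. With 5C rather than mES medium, Oct4GFP- cells had 1.58-fold more *Smc1a* (1.49 to 1.69) and 1.31-fold more *Smc3* (1.22 to 1.40), of which only the first passed the 1.5-fold rule. *Smc3* passed it between mES-Oct4GFP+ and mES-Oct4GFP- cells, with a ratio of 1.76 (1.64 to 1.88).

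The STAG subunits were ordered differently across the libraries. *Stag1* (chr9:100597798-100959375, plus strand) encodes the subunit known for telomere cohesion and for stable loops at CTCF sites. In Oct4GFP+ cells its level was 72.2 TPM after mES and 31.0 after 5C medium, in Oct4GFP- cells 30.1 and 40.4, with 53.0 in naive, 47.7 in primed and 44.3 in R1 ESCs-primed cells. *Stag2* (chrX:42149317-42277185, plus strand), the subunit known for centromere cohesion and often mutated in cancer, stood at 30.3 and 48.9 TPM in those Oct4GFP+ cells, 81.1 and 66.7 in the Oct4GFP- cells, 24.7 in naive, 70.4 in primed and 74.8 in R1 ESCs-primed cells. In mES-Oct4GFP+ cells *Stag1* was highest and *Stag2* second lowest, and in mES-Oct4GFP- cells *Stag1* was lowest, level with 5C-Oct4GFP+ cells within counting error, and *Stag2* highest. The orders were not mirror images, since 5C-Oct4GFP+ cells were among the 3 lowest and primed cells among the 3 highest for both genes. The sum of both changed less, from 77.6 TPM in naive to 119 in R1 ESCs-primed cells.

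**Figure D2:**
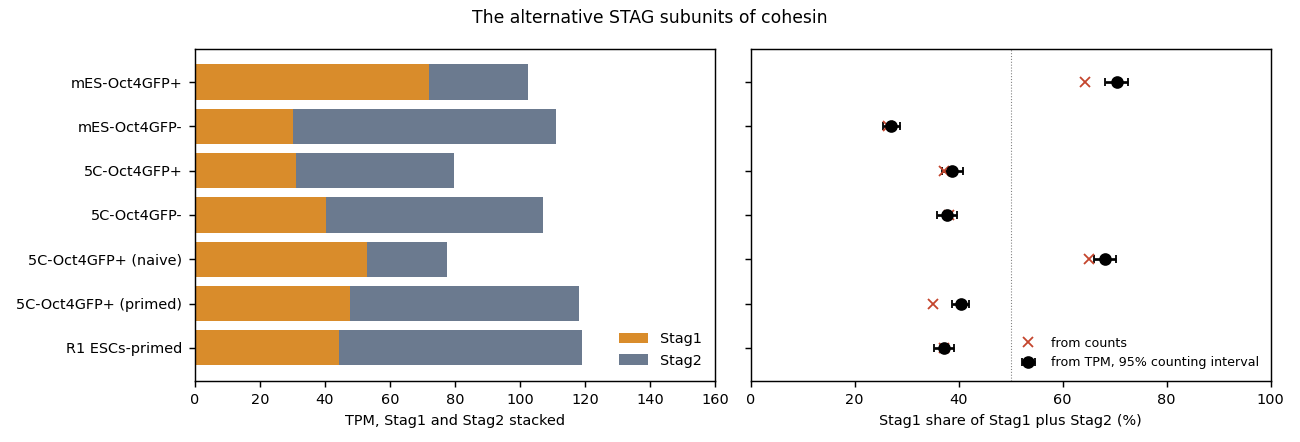
Left, TPM of *Stag1* and *Stag2* stacked for each library. Right, the *Stag1* share of the sum in percent, from TPM with its 95% counting interval (circles) and from read counts (crosses), with a dotted line at equal levels. The share was above the line only in mES-Oct4GFP+ (70.4%) and 5C-Oct4GFP+ (naive) cells (68.2%).

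The *Stag1* share of *Stag1* plus *Stag2* split the 7 libraries into separate ranges. It was 70.4% in mES-Oct4GFP+ (95% interval 68.2 to 72.6) and 68.2% in naive cells (66.1 to 70.3). In the other 5 libraries it lay between 27.1% (25.4 to 28.8) in mES-Oct4GFP- and 40.4% (38.7 to 42.0) in primed cells. The 5C-Oct4GFP+ cells, with pluripotency genes at high levels, had a share of 38.8% (36.8 to 40.8), close to the 37.7% of 5C-Oct4GFP- cells (35.9 to 39.7) and the 37.2% of R1 ESCs-primed cells (35.2 to 39.2). Counts without a length correction gave 64.4% and 65.1% in mES-Oct4GFP+ and naive cells and 26.5% to 38.2% elsewhere. Among Oct4GFP+ cells, *Stag1* was 0.429 times as high with 5C as with mES medium (0.391 to 0.471), and *Stag2* was 1.61-fold higher (1.46 to 1.79). On moving 5C-Oct4GFP+ cells to naive medium, *Stag1* was 1.71-fold higher (1.56 to 1.87) and *Stag2* 0.505 times as high (0.459 to 0.555). On moving them to primed medium, *Stag1* was 1.54-fold higher (1.41 to 1.68) and *Stag2* 1.44-fold higher (1.35 to 1.54), of which only the first passed the 1.5-fold rule. This call depended on the scale: on CPM the log2 difference of *Stag1* was 0.45, below the rule, and that of *Stag2* was 0.59, past it, and median-ratio rescaling of TPM took *Stag1* to 0.55, also below. Between naive and primed cells *Stag1* differed by a ratio of 1.11 (1.03 to 1.20), so their different shares lay in *Stag2*, which was 0.351 times as high in naive cells (0.321 to 0.383). The tables list 14 transcripts of *Stag1* and 8 of *Stag2*, several of them short. The unclassified gene *Gm37204* lies inside *Stag1* on the same strand, with at most 6.93 TPM. The mean transcript length of *Stag1* ran from 4117 bases in mES-Oct4GFP+ to 5658 in mES-Oct4GFP- cells, a ratio of 1.37, and 1539 of the 11020 genes varied at least as much in length. As CPM, which are counts scaled to a common library total with no length correction, *Stag1* was 1.89-fold higher in mES-Oct4GFP+ than in mES-Oct4GFP- cells (1.72 to 2.09), where TPM gave 2.40-fold (2.18 to 2.64).

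*Nipbl* (chr15:8290617-8444463, minus strand), the loader, had the lowest level of the 8 genes in 4 libraries and the second lowest in the other 3. Its level was 29.0 TPM in Oct4GFP+ and 35.4 in Oct4GFP- cells of mES medium, 41.6 in both kinds of cells of 5C medium, 22.7 in naive, 34.7 in primed and 34.6 in R1 ESCs-primed cells. It was lowest in the same pair of libraries in which *Stag1* exceeded *Stag2*. *Nipbl* was 0.545 times as high in naive cells as in the 5C-Oct4GFP+ cells they came from (0.504 to 0.589), and 0.834 times as high in primed cells (0.783 to 0.888). In Oct4GFP+ cells it was 1.43-fold higher with 5C than with mES medium (1.32 to 1.56), below the 1.5-fold rule. The partner of NIPBL in the loader, *Mau2*, stood at 31.5 TPM after mES and 37.9 after 5C medium in Oct4GFP+ cells and at 24.8 in naive cells, the lowest of its 7 values. Its order was not that of *Nipbl*: *Mau2* was highest in the Oct4GFP- cells, at 45.4 TPM after mES and 44.9 after 5C medium, and primed (31.0) and R1 ESCs-primed cells (32.0) stood beside mES-Oct4GFP+ cells.

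*Wapl* (chr14:34673928-34747983, plus strand), the release factor, had the widest range of the 8 genes. Oct4GFP+ cells had 689.9 TPM after mES and 410.0 after 5C medium, Oct4GFP- cells 99.3 and 104, followed by 685 in naive, 90.3 in primed and 113 in R1 ESCs-primed cells. The 3 libraries above 400 TPM and the 4 near 100 TPM did not overlap, and mES-Oct4GFP+ and naive cells did not differ beyond counting error. *Wapl* was 6.95-fold higher in mES-Oct4GFP+ than in mES-Oct4GFP- cells (6.53 to 7.40), 3.94-fold higher in 5C-Oct4GFP+ than in 5C-Oct4GFP- cells (3.72 to 4.16) and 7.59-fold higher in naive than in primed cells (7.19 to 8.02). Of the 11020 genes, 88.9% had a smaller range.

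Most of this range was in transcript length rather than in reads. As CPM, *Wapl* stood at 405 and 387 in Oct4GFP+ cells of mES and 5C medium and 405 in naive cells, against 189 and 221 in the Oct4GFP- cells, 186 in primed and 194 in R1 ESCs-primed cells. On that scale the highest value was 2.19 times the lowest, where TPM gave 7.64 times. The mean length of the *Wapl* transcripts to which RSEM assigned the reads was 1150 bases after mES and 1799 after 5C medium in Oct4GFP+ cells and 1104 in naive cells, but 3281 to 4215 bases in the other 4. A ratio of 3.82 between the longest and the shortest mean was matched or passed by 19 of the 11020 genes, *Wapl* included, a count made after the lengths had been seen. TPM divides by this length, so a read assigned to a short transcript weighs more.

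**Figure D3:**
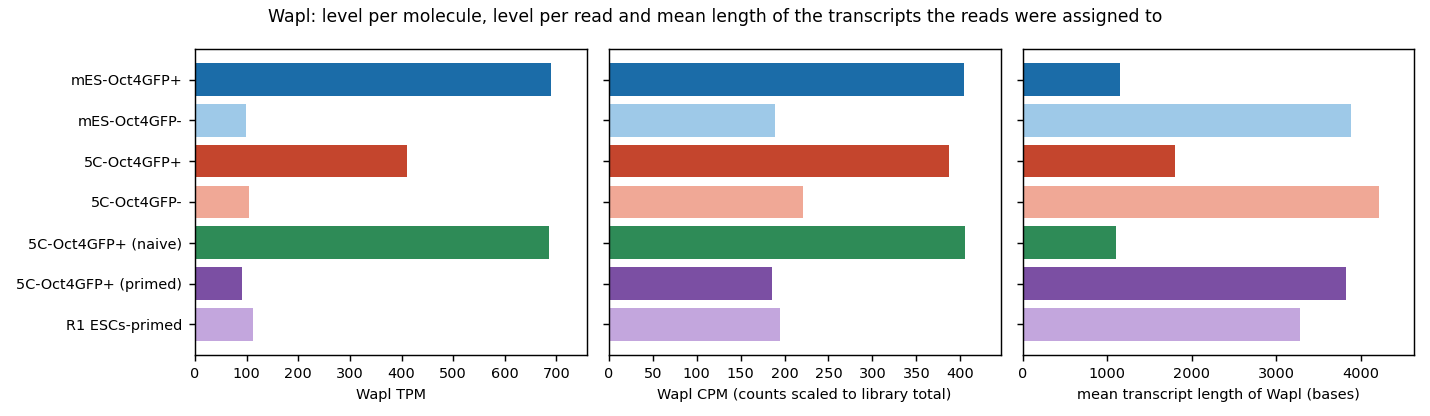
*Wapl* in the 7 libraries (y axis) as TPM, as CPM, and as the mean length in bases of its transcripts, each on an axis from 0. The 3 libraries with the highest TPM (410.0 to 689.9) have the shortest mean length (1104 to 1799 bases) and at most 2.19 times the lowest CPM.

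The tables hold 7 *Wapl* transcripts. In GENCODE M21 they measure 6351, 4185, 4066, 2688, 1820, 479 and 382 bases, so a mean of 1104 to 1150 bases needs some of the last 2. With those lengths, at least 46.6% of *Wapl* molecules in mES-Oct4GFP+ and 49.8% in naive cells were assigned to transcripts under 500 bases, and at most 88.6% and 89.4%. In 5C-Oct4GFP+ cells the bounds were 1.49% and 77.5%. In mES-Oct4GFP- cells the mean length required none and allowed 41.9%. Taking the longer transcripts alone, *Wapl* could lie anywhere from 78.8 to 368 TPM in mES-Oct4GFP+ and from 57.6 to 99.3 TPM in mES-Oct4GFP- cells, ranges that overlap. These bounds rest on M21 lengths, whereas the authors' own annotation may be an older one. For genes with a single transcript, the length in the tables equalled that of M21 within 1 base for 71.1% of 14457. *Rad21* and *Nipbl*, with 1 transcript each, were not among the matches. *Rad21* measured 3604 bases as deposited against 3956 in M21, and *Nipbl* 8815 against 9423. Whether the M21 lengths hold for *Wapl* was not tested.

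One of the short transcripts, Wapl-206, is annotated as a processed transcript without a coding sequence. It begins with an exon of its own at chr14:34709080-34709241, inside the intron between exons 4 and 5 of the full-length Wapl-201, and then uses exon 5. The other, Wapl-207, is an incomplete coding transcript of 4 exons at chr14:34737271-34741127. The gene tables give a mean over transcripts and do not say which of them the reads came from. The 162 bases of the internal first exon, taken from the M21 transcript on the plus strand, are shown because, unlike the other 2 exons of Wapl-206, they overlap no exon of another *Wapl* transcript.
Wapl-206 exon 1: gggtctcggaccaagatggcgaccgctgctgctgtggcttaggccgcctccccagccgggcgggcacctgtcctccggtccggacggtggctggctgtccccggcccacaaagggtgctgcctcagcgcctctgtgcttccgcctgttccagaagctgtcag

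The balance of loader and release factor depended on the same lengths. The *Nipbl* to *Wapl* ratio of TPM was 0.0420 (0.0388 to 0.0455) in mES-Oct4GFP+, 0.0331 (0.0307 to 0.0356) in naive and 0.101 (0.0962 to 0.107) in 5C-Oct4GFP+ cells. It was 0.306 to 0.400 in the other 4 libraries. As a ratio of counts it was 0.341, 0.280 and 0.514 in those 3 libraries, in the same order, and 0.817 to 0.894 in the other 4. The split between the 3 and the 4 libraries was thus present on both scales, and its size was not.

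Of 72 differences, 8 genes in 9 comparisons, 20 were called. The comparisons share libraries and are not independent of each other, and each count is set beside the share of all tested genes that were called. Between 5C-Oct4GFP- and mES-Oct4GFP- cells, 2 of 8 genes were called higher (*Ctcf*, *Smc1a*) and 0 lower, against 19.9% and 19.1% of 15859 genes tested. The median difference of the 8 genes was 0.32, with 7 of 8 above 0, against 0.03 for all genes tested. Between 5C-Oct4GFP+ and mES-Oct4GFP+ cells, 1 was higher (*Stag2*) and 2 were lower (*Stag1*, *Wapl*), against 21.9% and 24.5% of 15196 genes. The median of the 8 genes there was -0.004, with 4 above and 4 below 0.

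Across the sort, the 2 media gave different counts. Between mES-Oct4GFP+ and mES-Oct4GFP- cells, 4 of 8 genes were higher (*Wapl*, *Stag1*, *Ctcf*, *Smc3*) and 1 was lower (*Stag2*), against 27.5% and 38.0% of 16294 genes. The median difference was 0.58 for the 8 genes and -0.15 for all. Between 5C-Oct4GFP+ and 5C-Oct4GFP- cells, 1 was higher (*Wapl*) and 0 lower, against 14.7% and 35.5% of 15675 genes. The medians were -0.02 and -0.25. Summed fibroblast markers stood at 8.39 against 377 TPM across the mES sort and at 8.90 against 213 TPM across the 5C sort, and their part in the result was not tested. Rescaling the libraries to a common median ratio moved the median of all genes in the 5C comparison to -0.11 and that of the 8 genes to 0.13.

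**Figure D4:**
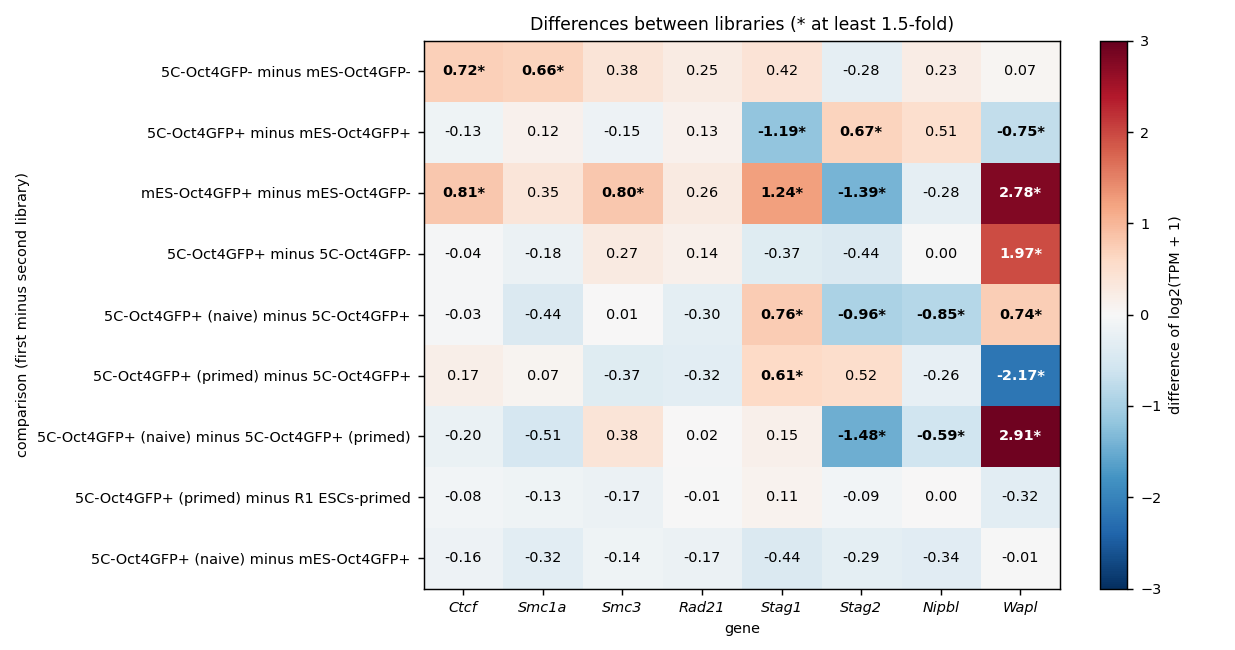
Differences of log2(TPM + 1) between libraries, first minus second, for the 8 genes (columns) in 9 comparisons (rows). Red is higher and blue lower in the first library, and an asterisk marks at least 1.5-fold. *Wapl*, *Stag1* and *Stag2* hold 14 of the 20 asterisks, and the last 2 rows hold none.

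After conversion of 5C-Oct4GFP+ cells, the genes called were STAG subunits, the loader and the release factor, and none was a ring gene or *Ctcf*. In naive against 5C-Oct4GFP+ cells, 2 of 8 genes were higher (*Stag1*, *Wapl*) and 2 lower (*Stag2*, *Nipbl*), against 18.3% and 28.6% of 14863 genes. In primed against 5C-Oct4GFP+ cells, 1 was higher (*Stag1*) and 1 lower (*Wapl*), against 24.2% and 24.3% of 15067 genes. In naive against primed cells, 1 was higher (*Wapl*) and 2 lower (*Stag2*, *Nipbl*), against 24.4% and 32.6% of 15249 genes. *Wapl* lost its call in naive against 5C-Oct4GFP+ cells on CPM, with a difference of 0.07 against 0.74 on TPM. Its difference between 5C-Oct4GFP+ and mES-Oct4GFP+ cells was -0.07 on that scale against -0.75 on TPM. *Stag1* in primed against 5C-Oct4GFP+ cells fell short of the rule on CPM (0.45) and after rescaling (0.55). *Nipbl* in naive against primed cells, -0.59 on TPM, fell short of it on FPKM (-0.51), after rescaling (-0.46) and on CPM (-0.54).

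The pairs of like states differed least. No gene of the 8 was called between 5C-Oct4GFP+ (primed) and R1 ESCs-primed cells, where 6.73% of 14600 genes were called higher and 11.1% lower. The widest difference there was *Wapl*, 0.798 times as high in the former (0.745 to 0.854), and the intervals of 5 of 8 genes included equal levels. None was called between naive and mES-Oct4GFP+ cells, where 6.10% of 14477 genes were higher and 18.2% lower. With median-ratio rescaling these shares were 7.92% and 14.2%. The 8 genes had differences below 0 here, with a median of -0.23 against -0.16 for all genes, and the interval of *Wapl* alone included equal levels. With the rescaling, the difference of *Wapl* was 0.12 and those of the other 7 stayed below 0. *Stag1* differed most there, at 0.734 times the mES-Oct4GFP+ level (0.673 to 0.7997).

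Other genes of the pathway were taken from lists. Of 11 cohesin regulators, 7 were at least 1.5-fold higher in mES-Oct4GFP+ than in mES-Oct4GFP- cells and 0 lower, against 27.5% and 38.0% of all genes tested. They were led by *Esco2*, the acetyltransferase that establishes cohesion in S phase (96.4 against 8.91 TPM), *Sgo1*, the protector of centromeric cohesin (53.7 against 7.27 TPM), and *Espl1*, the separase that cuts RAD21 at anaphase (47.9 against 12.8 TPM). In 5C-Oct4GFP+ against 5C-Oct4GFP- cells, 5 of the 11 were higher and 0 lower, against 14.7% and 35.5% of all genes. *Esco2* stood there at 101 against 32.2 TPM. In 5C-Oct4GFP- against mES-Oct4GFP- cells, 6 were higher and 1 lower, against 19.9% and 19.1%. *Esco2*, *Sgo1*, *Espl1* and *Pttg1*, which encodes securin, had the widest differences there, *Pttg1* at 143 against 67.4 TPM. These genes act in S phase and mitosis, and 14 of 15 cell cycle genes were also higher across the mES sort, 5 of 15 (with 1 lower) across the 5C sort and 15 of 15 in Oct4GFP- cells with 5C against mES medium. Their part in the result was not tested. Between primed and R1 ESCs-primed cells, *Pttg1* was the one regulator called, at 238 against 39.5 TPM.

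**Figure D5:**
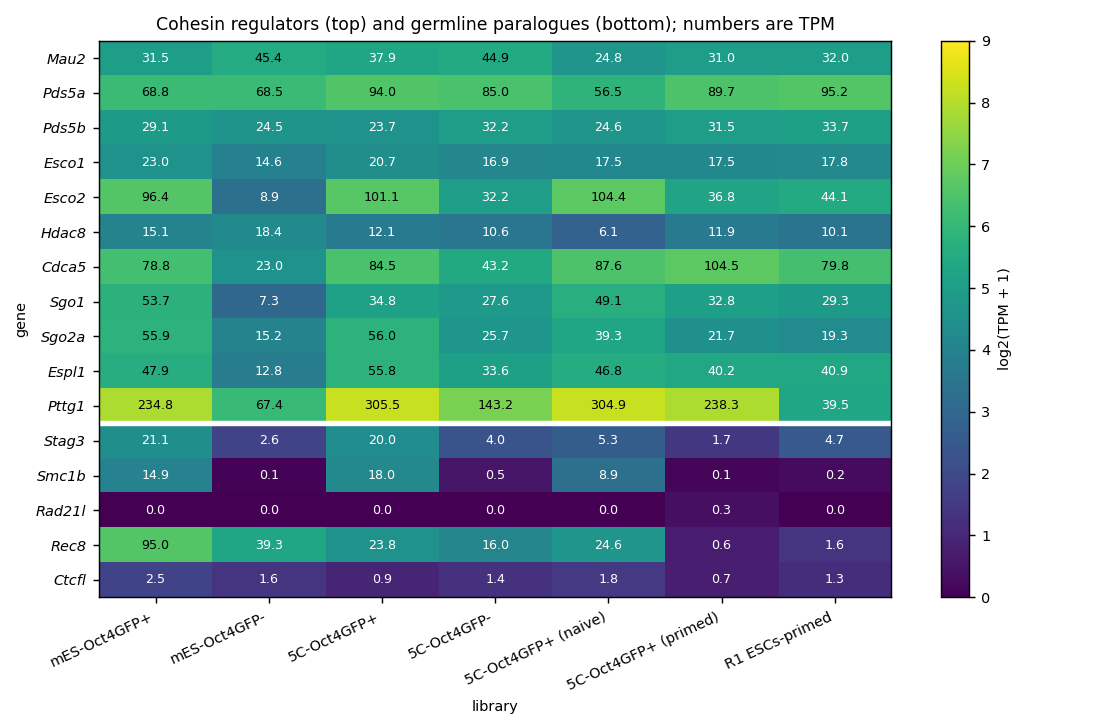
TPM (numbers) and log2(TPM + 1) (colour) of 11 cohesin regulators, above the white line, and 5 germline paralogues, below it, in the 7 libraries. *Esco2* and *Sgo1* are lowest in mES-Oct4GFP-, and *Smc1b* exceeds 1 TPM only in naive cells and both sorted Oct4GFP+ libraries.

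Paralogues of cohesin and CTCF that serve in germ cells were read in the pluripotent libraries. *Smc1b*, the meiotic form of *Smc1a*, stood at 14.9 TPM after mES and 18.0 after 5C medium in Oct4GFP+ cells, at 8.92 in naive cells, and at 0.06 to 0.47 TPM in the other 4 libraries. *Stag3*, the meiotic STAG subunit, was at 21.1 and 20.0 TPM in those Oct4GFP+ cells, 5.32 in naive and 1.72 to 4.67 TPM in the other 4. *Rec8*, the meiotic kleisin, ranged from 94.99 TPM in mES-Oct4GFP+ to 0.62 in primed cells, with 39.3 TPM in mES-Oct4GFP-. In primed against 5C-Oct4GFP+ cells all 3 of these were at least 1.5-fold lower, as were 24.3% of all genes tested. *Rad21l* was listed at 0 in 6 libraries and at 0.30 TPM in primed cells, and *Ctcfl* (BORIS), the germline paralogue of CTCF, stayed between 0.67 and 2.55 TPM. The somatic form was above its meiotic paralogue in every library for *Smc1a*, *Stag1*, *Stag2* and *Rad21*.

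Condensin, the related ring that compacts mitotic chromosomes, and factors that work with CTCF were read in the same way. In Oct4GFP- cells, 7 of 8 condensin genes were called higher with 5C than with mES medium and 0 lower, against 19.9% and 19.1% of all genes tested, led by *Ncapd2* (299 against 93.1 TPM). The same count of 7 was higher in mES-Oct4GFP+ than in mES-Oct4GFP- cells, where 27.5% of all genes were, led by *Smc2* (88.1 against 31.2 TPM). The 15 cell cycle genes moved the same way, 15 of them in the former comparison and 14 in the latter, and their part in the condensin counts was not tested. Of 7 CTCF partners and loop factors, 1 was higher and 1 lower across the mES sort, shares below the 27.5% and 38.0% of all genes. These were *Patz1*, which encodes a zinc-finger protein (133 against 58.3 TPM), and *Top2b*, a topoisomerase that cuts DNA at loop anchors (31.2 against 81.2 TPM). *Top2b* was also lower across the 5C sort, at 43.7 against 110.2 TPM, and in naive against primed cells, at 18.6 against 66.4 TPM. *Patz1* went the other way across the 5C sort, at 47.2 in Oct4GFP+ against 71.8 TPM in Oct4GFP- cells, and was called lower there. *Yy1* (64.9 to 97.4 TPM), *Zfp143* (19.9 to 24.8 TPM) and *Ldb1* (145 to 200.8 TPM) were called in none of the 9 comparisons.

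The genes whose profile was most like each member were found by the root-mean-square difference of centred log2(TPM + 1) values over the 7 libraries, among the 11020 genes. For *Ctcf* these were *Dhx15* (0.046), *Cenpc1* (0.060) and *Rbm28* (0.067). For *Smc1a* they were *Idh3a* (0.077), *3010003L21Rik* (0.083) and *Strbp* (0.088), for *Smc3* *Wdr82* (0.057), *Hnrnpu* (0.065) and *Ccnt2* (0.072), and for *Rad21* *Pde12* (0.044), *Sart1* (0.047) and *Cdk7* (0.058). *Stag1* was most like *Mis12* (0.089), *Nsun4* (0.12) and *Kat14* (0.13), and *Stag2* most like *Pced1a* (0.11), *Rgp1* (0.12) and *Midn* (0.12). *Nipbl* was nearest to *Parn* (0.076), *Gbf1* (0.081) and *Birc2* (0.084). *Wapl* was nearest to *Gm4767* (0.18), *Focad* (0.18) and *Zfp97* (0.25). These 3 were matched to the TPM of *Wapl*, whose range was mostly in transcript length. No member was among the 3 nearest genes of another member. The closest such pair was *Smc3* and *Rad21*, at 0.19, where 449 genes lay nearer to *Smc3*.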

How the data were processed

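RNA of 7 samples was sequenced, 1 library for each group, and groups came from the sample titles. The authors prepared libraries with a kit that does not mark strand, and the submitters' processing notes name Bowtie, RSEM and the mm10 build. Versions and the annotation release are not given in the sources used here. In the deposited tables the expected counts, estimated by the authors with RSEM, are unnormalized reads per gene that need not be whole, and they were rounded for intervals. TPM, as deposited, was computed by the authors with RSEM from the count divided by effective length. FPKM, also deposited by the authors, is scaled to mapped fragments and served as an alternative. Of 29267 gene identifiers, 28756 matched a symbol.

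Differences were taken on log2(TPM + 1). Genes with at least 1 TPM in either library were tested against the 1.5-fold rule, which is a size and not a significance test. Exact Clopper-Pearson 95% intervals of gene ratios came from the counts of a gene in 2 libraries, scaled to TPM. Totals of 6108252 to 11496615 counts per library, with at least 538 counts for each of the 8 genes, set their width. With 1 library per group, no test and no model with residual error was possible. Alternatives were a pseudocount of 0.1, FPKM, median-ratio rescaling over 11020 genes, CPM (counts scaled to the library total), other minimum values and 2-fold. Named genes were all 8 members, up to 4 called genes of each list and comparison with the largest differences, the 3 nearest profiles of each member, and the markers. The levels of *Mau2*, *Rad21l*, *Ctcfl*, *Yy1*, *Zfp143* and *Ldb1* are given besides, as named after their values were seen. The members and lists were chosen with earlier results of these data known. Positions and transcripts came from GENCODE M21, of the same build, and promoters from RefSeq. The code was tested on simulated data. Work was done in Python 3.11.15 with scipy 1.17.1 for intervals, pandas 2.3.3 and numpy 2.4.6 for tables, and matplotlib 3.10.9 for figures.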

Additional observations from a re-analysis of the deposited data

Results flagged for a closer look

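In 4 genes the effect of 5C against mES medium went opposite ways in Oct4GFP- and Oct4GFP+ cells, with both counting intervals excluding equal levels. The difference between the 2 effects, on the log2(TPM + 1) scale, was 0.85 for *Ctcf* (0.72 in Oct4GFP- and -0.13 in Oct4GFP+ cells), 0.53 for *Smc3* (0.38 and -0.15), 1.61 for *Stag1* (0.42 and -1.19) and -0.95 for *Stag2* (-0.28 and 0.67). Across the sort, 2 genes went opposite ways in the 2 media. *Stag1* was higher in Oct4GFP+ cells after mES medium (1.24) and lower after 5C medium (-0.37), again a gap of 1.61, since both contrasts are built from the same 4 libraries. *Smc1a* differed by 0.54 (0.35 after mES and -0.18 after 5C medium). With 1 library per group, the difference was not tested in any of these genes. The share of all genes that went opposite ways is not given, so the counts of 4 and 2 genes have no background beside them. With 5C against mES medium, 52.4% of all genes tested were above 0 in Oct4GFP- cells and 46.6% in Oct4GFP+ cells. Whether opposite effects are more frequent in these genes than in others was not tested. After median-ratio rescaling, the intervals of *Ctcf* in Oct4GFP+ cells (difference -0.08, ratio 0.945, 0.879 to 1.02) and of *Smc1a* across the 5C sort (-0.03, 0.981, 0.928 to 1.04) included equal levels, so opposite effects in these 2 genes depended on the scaling. On CPM, counts scaled to the library total, all 6 pairs kept opposite signs, with *Stag1* at 0.45 and -0.95 for the medium and at 0.91 and -0.49 for the sort.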

How the results depend on the processing

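Of the 20 called differences, 16 stayed at 1.5-fold or more under a pseudocount of 0.1, FPKM, median-ratio rescaling and CPM. None changed sign. The other 4 were *Wapl* between 5C-Oct4GFP+ and mES-Oct4GFP+ cells (-0.07 with CPM), *Wapl* in naive against 5C-Oct4GFP+ cells (0.07 with CPM), *Stag1* in primed against 5C-Oct4GFP+ cells (as low as 0.45) and *Nipbl* in naive against primed cells (as small as -0.46). For *Wapl* the alternative leaves out the transcript length by construction, and for the other 2 the cause was not tested. Of the differences not called, *Stag2* in primed against 5C-Oct4GFP+ cells reached 0.59. Signs of 8 uncalled differences changed.

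The median difference of the 8 genes moved beyond counting error in these cases. Across the mES sort it was 0.69 with FPKM. Across the 5C sort it was 0.072 with FPKM, 0.13 with rescaling and 0.077 with CPM. For naive against primed cells it was 0.043 with rescaling and 0.061 with CPM, and for naive against mES-Oct4GFP+ cells -0.10 with rescaling. The number of genes called at 2-fold was 0 for Oct4GFP- cells between media, 1 for Oct4GFP+ cells between media, 3 across the mES sort, 0 for naive and 1 for primed against 5C-Oct4GFP+ cells, and rescaling left 1 in the last. The share of all tested genes past 2-fold is not given, so these 2-fold counts have no background beside them. Minimum values of 0 and 5 TPM changed only the genes tested, not the members. The *Stag1* share from counts was 64.4% in mES-Oct4GFP+, 65.1% in naive and 35.0% in primed cells. The *Nipbl* to *Wapl* ratio from counts was 0.341 and 0.514 in Oct4GFP+ cells of mES and 5C medium, 0.817 and 0.844 in their Oct4GFP- cells, 0.280 in naive, 0.894 in primed and 0.832 in R1 ESCs-primed cells. A pseudocount has no meaning for a share or ratio and was not run there. With a minimum of 5 TPM, 2 of the 3 nearest profiles of *Smc1a* and of *Wapl* remained, and all 3 for the other 6 genes.

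No paired analysis was possible because each group has 1 library, and for the same reason no library was left out in turn. The counts of these genes give narrow intervals, which do not cover the spread between cultures or the assignment of reads to transcripts.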

Other observations

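The Smc5/6 complex is the remaining ring of the SMC family and acts in DNA repair. Of its 6 genes, 0 were called between 5C-Oct4GFP- and mES-Oct4GFP- cells, where 19.9% of all genes tested were higher and 19.1% lower. Their median difference there was 0.17 against 0.03 for all genes tested. Of the same 6, 2 were lower in Oct4GFP+ cells with 5C than with mES medium, against 24.5% of all genes tested. *Smc6* stood at 29.0 against 45.2 TPM and *Nsmce4a* at 211 against 318 TPM. In naive cells *Smc5* was lower than in both the 5C-Oct4GFP+ cells of origin and the primed cells, at 23.0 against 38.7 and 35.2 TPM.

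*Focad*, one of the 3 genes nearest to *Wapl* in TPM profile, had 192 and 86.6 TPM in Oct4GFP+ cells of mES and 5C medium and 191 TPM in naive cells. Its level was 25.8 and 32.3 TPM in the Oct4GFP- cells, 20.4 in primed and 26.0 in R1 ESCs-primed cells. *Hdac8*, the deacetylase that recycles SMC3, was called lower in naive cells against 3 libraries, with 6.14 TPM in naive and 11.9 in primed cells and, among sorted Oct4GFP+ cells, 15.1 after mES and 12.1 after 5C medium.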
